A study of Mus musculus with 6 samples.

Results

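SHP is an orphan nuclear receptor, the product of Nr0b2. It represses other transcription factors through enzymes and scaffold proteins that act on chromatin, and the genes of 10 such partners are described here in mouse liver. They are the scaffold Ncor1 with Gps2 and Hdac3, the scaffold Sin3a with Hdac1 and Hdac2, the deacetylase Sirt1, the demethylase Kdm1a, the methyltransferase Ehmt2 and the remodelling ATPase Smarca4. Members were taken by name, as the rows of the deposited gene table whose symbol equals one of these 10. The table lists 33495 genes in all, and the 10 members all have counts in every library and all passed the filter on low counts. Livers of 3 wild-type and 3 SHP -/- male mice were compared, all aged 2 months and all on a C57BL6 background. Both genotypes went through the same selection of capped RNA, made with a variant of the cap-binding protein EIF4E that binds caps tightly, so levels are those of capped transcripts and not of total RNA. The labels do not say how the SHP allele was made, whether littermates were used or which libraries shared a sequencing lane, so an effect of lane and one of genotype cannot be told apart. The p-values measure the spread between these 6 libraries.

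SHP has no DNA-binding domain. It attaches to nuclear receptors already on DNA, such as LRH-1 and HNF4 alpha, and brings in corepressors. NCoR (encoded by Ncor1) carries HDAC3 and GPS2; SIN3 and the CoREST and NuRD complexes carry HDAC1 and HDAC2; G9a (Ehmt2) methylates lysine 9 of histone H3; BRG1 or BRM (Smarca4 or Smarca2) drives SWI/SNF remodelling. In liver this machinery is known for the feedback by which bile acids shut down their own synthesis.

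Library totals ran from 4494353 to 7225842 counts. Summed over 8 hepatocyte markers (Alb, Apoa1, Ttr and others), levels were 71729 to 92922 CPM (counts relative to the scaled library size) in wild type and 80477 to 86011 CPM in knockout, the check of the labelled tissue. No list of markers of other liver cells had a gene at 0 in all libraries. The summed level of 13 proliferation markers was 52.8 to 61.1 CPM in wild type and 61.7 to 77.6 CPM in knockout, without overlap, though only Tk1 of the 8 tested passed. Among single genes tested, 35.1% did not overlap between genotypes in either direction. Of 10 macrophage markers, 3 were higher in limma voom (Marco, C1qa and C1qc), beside 7.58% of all genes tested. For 3 others of the 10 the log2 difference was negative. The macrophage sums were 391 to 457 CPM in wild type and 402 to 617 CPM in knockout. Sums of 8 sinusoidal endothelial and 8 stellate markers were lowest in knockout library 1, at 334 and 136 CPM, against 493 to 534 and 249 to 277 CPM in wild type. Knockout libraries 2 and 3 were at 514 and 509 CPM for the endothelial sum, within the wild-type range. For the stellate sum they were at 289 and 283 CPM, above it. Single markers also went other ways: the endothelial Lyve1 rose (log2 difference 0.82; limma voom, adjusted p = 0.0244), as did the hepatocyte Fgb (0.33, adjusted p = 0.0496), while the hepatocyte Tat fell (−0.35, adjusted p = 0.0284) and so did the stellate-list Rgs5. Lyve1, Fgb and Tat remained calls in a fit with each library's trend on GC content (base composition) removed, and the 3 macrophage genes, Rgs5 and Tk1 did not. Mitochondrially encoded genes made up 10.2% to 10.3% of counts in each wild-type library, against 5.66% to 7.10% in knockout. With library totals taken without these genes, limma voom called Ehmt2 and Hdac2 of the members, the same 2 as with full totals. Scaling factors were recomputed in that fit and offset a change of totals, so it could hardly differ. The part of these shifts in the members' results was not tested.

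Nr0b2 itself (ENSMUSG00000037583) was at 17.7, 12.3 and 13.5 CPM in wild-type libraries 1 to 3 and at 6.62, 7.07 and 10.3 CPM in knockout libraries 1 to 3. All knockout libraries lay below all wild-type libraries, and none was at 0. The log2 difference, knockout minus wild type, was −0.81 ± 0.25 (SE; limma voom, adjusted p = 0.0443). Leaving out 1 library at a time, limma voom kept this call without knockout library 3 only (−1.06). The adjusted p was 0.12, 0.0524 and 0.099 in turn when wild-type library 1, 2 or 3 was dropped, and 0.123 and 0.122 when knockout library 1 or 2 was. It was 0.0536 with library totals only and 0.0667 without the filter on low counts. With the trend on base composition removed from each library, the difference was −1.13 (adjusted p = 0.0123).

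Of the 10 partner genes, Ehmt2 was higher in knockout liver, Hdac2 was lower, and 8 did not pass an adjusted p of 0.05 in limma voom. Those are 2 of 10 members, beside 14.5% of the 11794 genes tested (7.58% higher and 6.94% lower). The changes were small: Ehmt2 rose 1.34-fold (95% confidence interval 1.12 to 1.61) and Hdac2 fell to 0.641 of its wild-type level (0.486 to 0.845). Each call was kept in only 1 of the 6 limma voom fits without 1 library. Neither was kept without the filter on low counts or with the GC trend removed. Knockout libraries lay wholly above wild type for Ehmt2 and wholly below for Hdac2, Ncor1 and Hdac1. Such separation in either direction held for 35.1% of all genes tested, and separation below for 17.9%. The log2 difference was negative for 8 of the 10 members, beside 5957 of the 11794 genes tested. The median over the 10 was −0.24, against −0.01 over all genes tested. Among the 8 are Hdac3, at −0.02, and Hdac1, whose value is uncertain as described below. In bulk liver RNA, fewer cells of a type and less RNA per cell cannot be told apart.

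**Figure D1:**
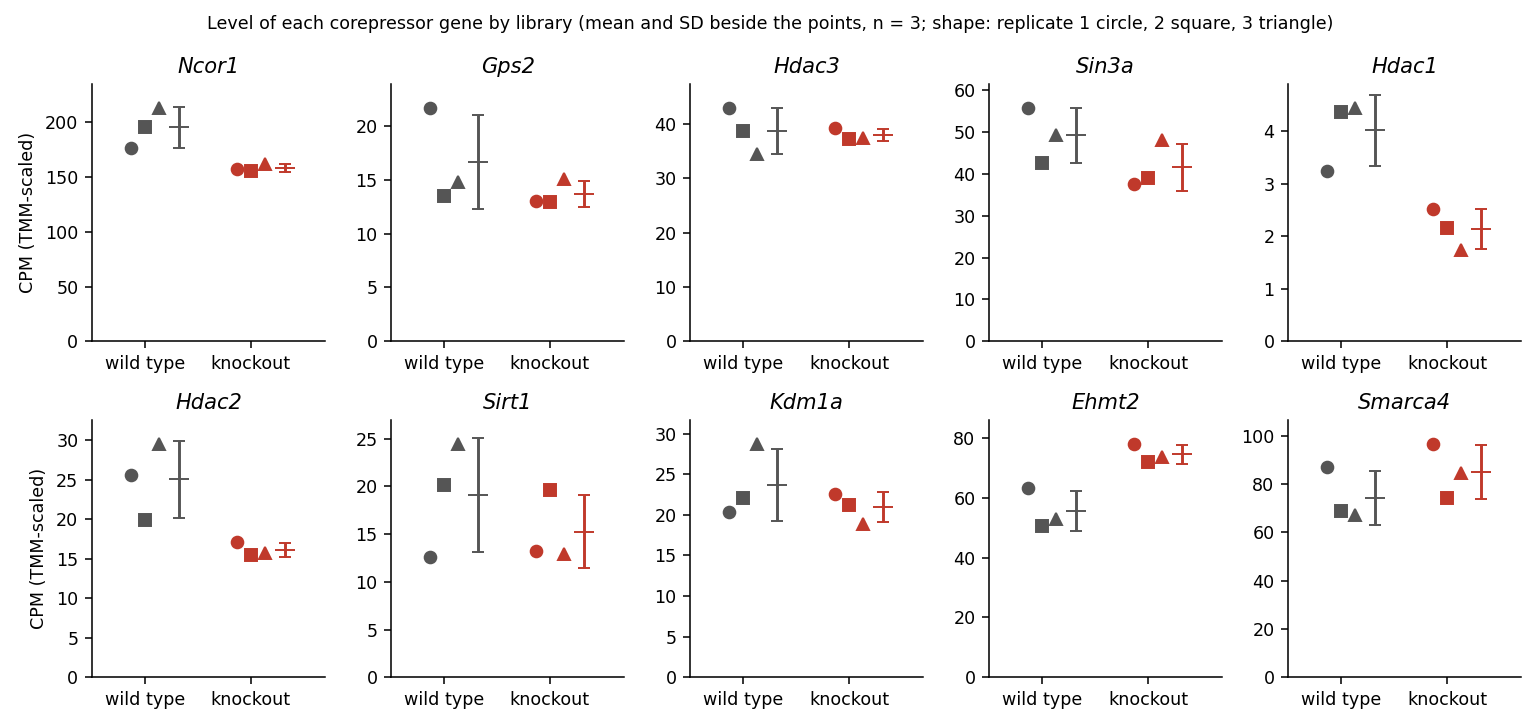
Level of each member in CPM (y axis, starting at 0) in the 3 wild-type (grey) and 3 knockout (red) libraries, with the mean and SD beside the points (n = 3). Hdac2 knockout libraries sit between 15.5 and 17.1 CPM below all wild-type libraries, and Ehmt2 knockout libraries between 72.1 and 78.1 CPM above them.

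Across the whole table, differences between genotypes were ordered by the base composition of the transcripts. Over 11478 tested genes with a GC value, the log2 difference had a Spearman rho of 0.52 with the GC content of the longest annotated transcript, given as a description across genes that share the same 6 libraries. With genes split into 5 equal groups by GC, the median log2 difference was −0.31 in the lowest group, with 21 genes higher and 420 lower. In the highest group it was 0.32, with 438 higher and 26 lower. The median deviation of the lowest group from the mean of the 6 libraries was 0.08, 0.18 and 0.22 in the wild-type libraries and −0.19, −0.12 and −0.13 in the knockout libraries, smallest in wild-type library 1. Among members, Hdac2 has the lowest GC content (41.9%) and Ehmt2 the highest (60.8%). When the smooth GC trend of each library was subtracted before the fit, an alternative chosen after seeing the data, 6.00% of genes passed limma voom and 0 of the 10 members did, 3 of them having an unadjusted p under 0.05, beside 21.3% of genes in that fit. Without the filter on low counts 0 members passed as well, with log2 differences of 0.43 for Ehmt2 and −0.63 for Hdac2. In that fit 4 members had an unadjusted p under 0.05, beside 21.1% of genes. That share includes the low-count genes that the filter removes. Of the 11794 genes that pass the filter, as all members do, 3507 were under 0.05 in the same fit. With the filter, 4 members were under 0.05 in limma voom, beside 30.6% of genes.

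**Figure D2:**
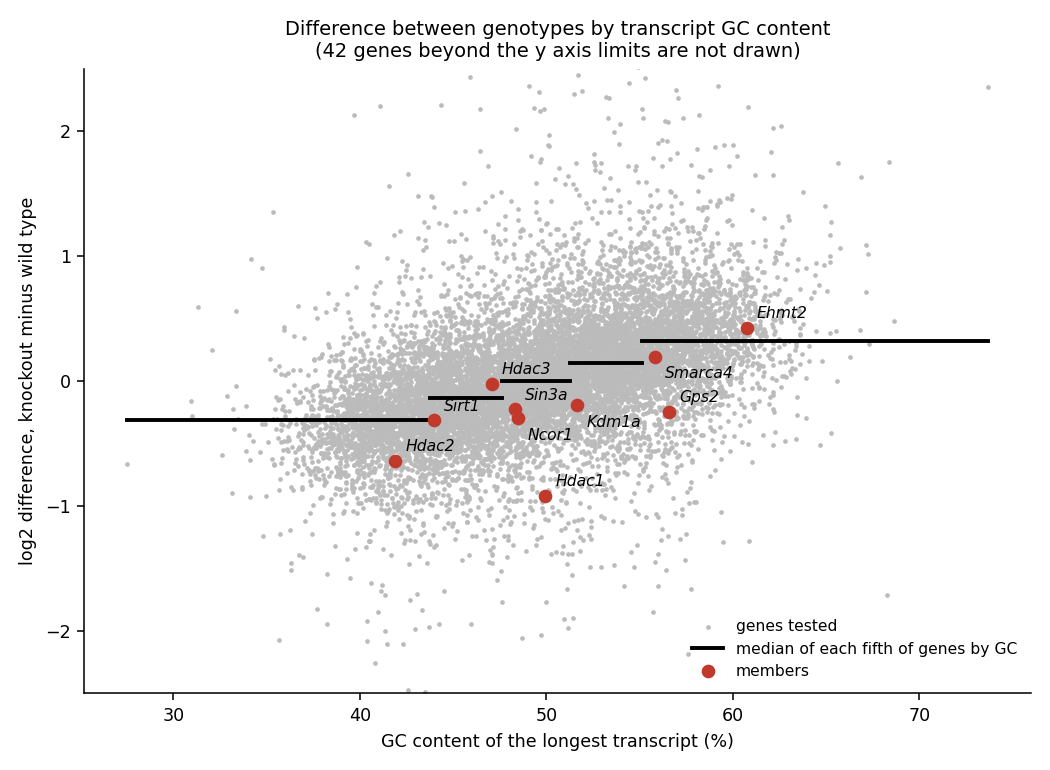
Log2 difference between genotypes (y axis, cut at 2.5 above and below 0, with 42 genes outside it) against transcript GC content in percent (x axis) for all tested genes in grey, with the members in red and black bars at the median of each of the 5 GC groups. Medians climb from −0.31 to 0.32, and Hdac2 and Ehmt2 lie near the opposite ends of the members' GC range.

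Ncor1, the scaffold that binds unliganded receptors and activates HDAC3, had the highest mean level per transcript length among the members in wild-type liver (ENSMUSG00000018501; mm9 chr11:62129928-62272043, minus strand). It stood at 176, 196 and 213 CPM (wild type) against 157, 155 and 162 CPM (knockout). The knockout libraries were tightly grouped and all lay below wild type. It differed by −0.30 ± 0.10 on the log2 scale (SE; limma voom, adjusted p = 0.0714), so Ncor1 did not pass, and of the fits without 1 library it passed in that without wild-type library 1 (−0.37, adjusted p = 0.0418). With the GC trend removed the difference was −0.26 (adjusted p = 0.158). Ttc19 overlaps Ncor1 on the opposite strand over 12026 bases with 81 to 153 counts per library, and whether reads were counted by strand is not stated in the sources used. A partial copy of Ncor1, Gm6743, held 0 to 4 counts.

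Gps2, a small subunit of the NCoR and HDAC3 complex known to act with SHP on bile acid genes, was at 21.7, 13.5 and 14.8 CPM (wild type) against 13, 13 and 15 CPM (knockout). Only wild-type library 1 stood apart, and the groups overlapped. Hdac3, the deacetylase of the complex, was at 43.0, 38.7 and 34.5 CPM (wild type) against 39.3, 37.3 and 37.5 CPM (knockout). Its log2 difference of −0.02 had a 95% confidence interval from −0.31 to 0.27, and that of Gps2 was −0.25 (−0.71 to 0.21). Neither passed limma voom (adjusted p = 0.937 and 0.47). Gps2 has a similar copy (Gm5221, 92.7% identity over 970 bases), not analysed here.

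Among further NCoR subunits, Tbl1x was at 97.2 ± 1.75 CPM (wild type) against 79.9 ± 3.75 CPM (knockout; SD, n = 3 per genotype; limma voom, adjusted p = 0.0872) and Tbl1xr1 at 54.3 ± 10.5 and 46.1 ± 5.92 CPM (adjusted p = 0.355).

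Sin3a, the scaffold on which the SIN3 histone deacetylase complex is built, was at 55.8, 42.6 and 49.2 CPM (wild type) against 37.7, 39.1 and 48.1 CPM (knockout). Knockout libraries 1 and 2 were the lowest of the 6 and the groups overlapped (log2 difference −0.23 ± 0.15, SE; limma voom, adjusted p = 0.314). Its paralog Sin3b was at 28.8, 30.1 and 26.5 CPM (wild type) against 33.8, 45.4 and 34.8 CPM (knockout), without overlap (0.40 ± 0.15; limma voom, adjusted p = 0.0937). The log2 ratio of Sin3a to Sin3b counts differed by −0.65 between genotypes, without overlap (two-sided exact permutation p = 0.1, the smallest that 3 against 3 can give; 0.125 adjusted over the 5 paralog ratios computed). With the GC trend removed the ratio's groups overlapped, with a difference of −0.33.

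Hdac2, a class I deacetylase shared by the SIN3, NuRD and CoREST complexes, was the member that fell (ENSMUSG00000019777; mm9 chr10:36694350-36721695, plus strand). Its counts were 150, 96 and 186 (wild type) against 75, 79 and 117 (knockout), which is 25.6, 19.9 and 29.5 CPM against 17.1, 15.5 and 15.7 CPM. All knockout libraries were below wild type, and the wild-type libraries were more spread. It differed by −0.64 ± 0.19 on the log2 scale (SE; limma voom, adjusted p = 0.0342). With 1 library left out, the call remained only without wild-type library 2 (−0.77); limma voom gave adjusted p = 0.0684 without wild-type library 1, 0.149 (at −0.51) without wild-type library 3, and 0.0633, 0.0851 and 0.0939 without knockout libraries 1, 2 and 3. It was also lost with the GC trend removed, at −0.36 (adjusted p = 0.276).

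Hdac1, the close homologue that sits in the same complexes, had the fewest counts of the members (ENSMUSG00000028800; mm9 chr4:129193348-129219957, minus strand). Its counts were 19, 21 and 28 (wild type) against 11, 11 and 13 (knockout), or 3.24, 4.36 and 4.45 against 2.51, 2.16 and 1.75 CPM. The groups did not overlap, with a log2 difference of −0.92 ± 0.39 (SE; limma voom, adjusted p = 0.128). A near-identical copy, Gm10093 in a later annotation (ENSMUSG00000061062; mm9 chr17), shares 1444 aligned bases with Hdac1 at 99.4% identity and held far more counts: 161, 82 and 132 (wild type) against 64, 126 and 127 (knockout). The copy took 87.0% of the counts of the pair, and the table alone does not show which locus the reads came from, so the value of Hdac1 is uncertain. Summed over both loci, levels were 30.7, 21.4 and 25.4 CPM (wild type) against 17.1, 26.9 and 18.8 CPM (knockout). The summed groups overlapped, with a log2 difference of −0.33 ± 0.20 (SE; limma voom, adjusted p = 0.277), a sum made after seeing the data. Further copies of Hdac1, at 96.3%, 94.6% and 90.1% identity, have no row in the deposited table and are not part of this sum.

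The ratio of Hdac1 to Hdac2 counts was 0.127, 0.219 and 0.151 in wild type and 0.147, 0.139 and 0.111 in knockout, with a log2 difference of −0.29 (two-sided exact permutation p = 0.4). With the GC trend removed it was −0.58, and all knockout ratios then lay below all wild-type ratios (two-sided exact permutation p = 0.1). It became 0.30 when the copy was summed with Hdac1. Hdac8, the remaining class I deacetylase, was at 9.53 ± 0.694 CPM (wild type) against 7.27 ± 2.21 CPM (knockout; SD, n = 3 per genotype; limma voom, adjusted p = 0.386).

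Sirt1, the NAD-dependent deacetylase that senses fasting in liver, differed less between the genotype means than among the wild-type libraries. It was at 12.6, 20.2 and 24.5 CPM (wild type) against 13.2, 19.6 and 12.9 CPM (knockout). The lowest library of all was wild-type library 1, and the groups overlapped. The log2 difference was −0.32, with a 95% confidence interval from −0.86 to 0.23 (limma voom, adjusted p = 0.436).

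Kdm1a, which encodes LSD1 and removes methyl groups from lysine 4 of histone H3, was at 20.3, 22.0 and 28.7 CPM (wild type) against 22.6, 21.2 and 18.9 CPM (knockout). Wild-type library 3 was the highest and knockout library 3 the lowest, with the others between them. The log2 difference was −0.20, with an interval from −0.58 to 0.19 (limma voom, adjusted p = 0.494). Rcor1, the CoREST scaffold that holds LSD1 to HDAC1 and HDAC2, was at 15.2 ± 3.83 CPM (wild type) against 14.8 ± 2.07 CPM (knockout; SD, n = 3 per genotype). The paralog Kdm1b was at 31.4 ± 3.16 and 36.1 ± 2.17 CPM (SD, n = 3 per genotype; limma voom, adjusted p = 0.338).

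Ehmt2, which encodes G9a, the methyltransferase that places mono- and dimethyl marks on lysine 9 of histone H3, was the member that rose (ENSMUSG00000013787; mm9 chr17:35035414-35050997, plus strand). It stood at 63.3, 50.5 and 53.0 CPM (wild type) against 78.1, 72.1 and 73.6 CPM (knockout). The knockout libraries were close together and all above wild type, of which library 1 was the highest. On the log2 scale Ehmt2 differed by 0.42 ± 0.12 (SE; limma voom, adjusted p = 0.0337). With 1 library left out, the call remained only without wild-type library 1 (0.52); limma voom gave adjusted p = 0.0955 and 0.128 without wild-type libraries 2 and 3, and 0.093, 0.0597 and 0.0644 without knockout libraries 1, 2 and 3. With the GC trend removed the log2 difference was 0.00, with an interval from −0.23 to 0.24 (adjusted p = 0.988).

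Ehmt1, whose product GLP pairs with G9a, was at 62.8, 51.7 and 58.8 CPM (wild type) against 48.2, 41.4 and 53.2 CPM (knockout), with overlap (−0.28 ± 0.13, SE; limma voom, adjusted p = 0.182). Counts of Ehmt2 and Ehmt1 were nearly equal in wild type, with ratios of 1.01, 0.976 and 0.903, and Ehmt2 had 1.62, 1.74 and 1.38 counts per count of Ehmt1 in knockout. All knockout ratios were higher, and the log2 ratio differed by 0.71 (two-sided exact permutation p = 0.1; 0.125 adjusted). With the GC trend removed the difference was 0.38, and the groups still did not overlap.

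Smarca4, which encodes the SWI/SNF ATPase BRG1, was at 87.2, 68.6 and 67.0 CPM (wild type) against 96.6, 74.2 and 84.4 CPM (knockout). The groups overlapped, and library 1 was the highest of each. The log2 difference was 0.19, with an interval from −0.10 to 0.49 (limma voom, adjusted p = 0.366), and it turned to −0.06 with the GC trend removed. Smarca2, the alternative ATPase BRM, was at 206 ± 32.4 CPM (wild type) against 186 ± 5.28 CPM (knockout; SD, n = 3 per genotype; limma voom, adjusted p = 0.451). Smarca4 had 0.365, 0.394 and 0.325 counts per count of Smarca2 in wild type and 0.519, 0.412 and 0.443 in knockout, without overlap. The log2 ratio differed by 0.34 (two-sided exact permutation p = 0.1; 0.125 adjusted), and by 0.17, with overlap, when the GC trend was removed.

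**Figure D3:**
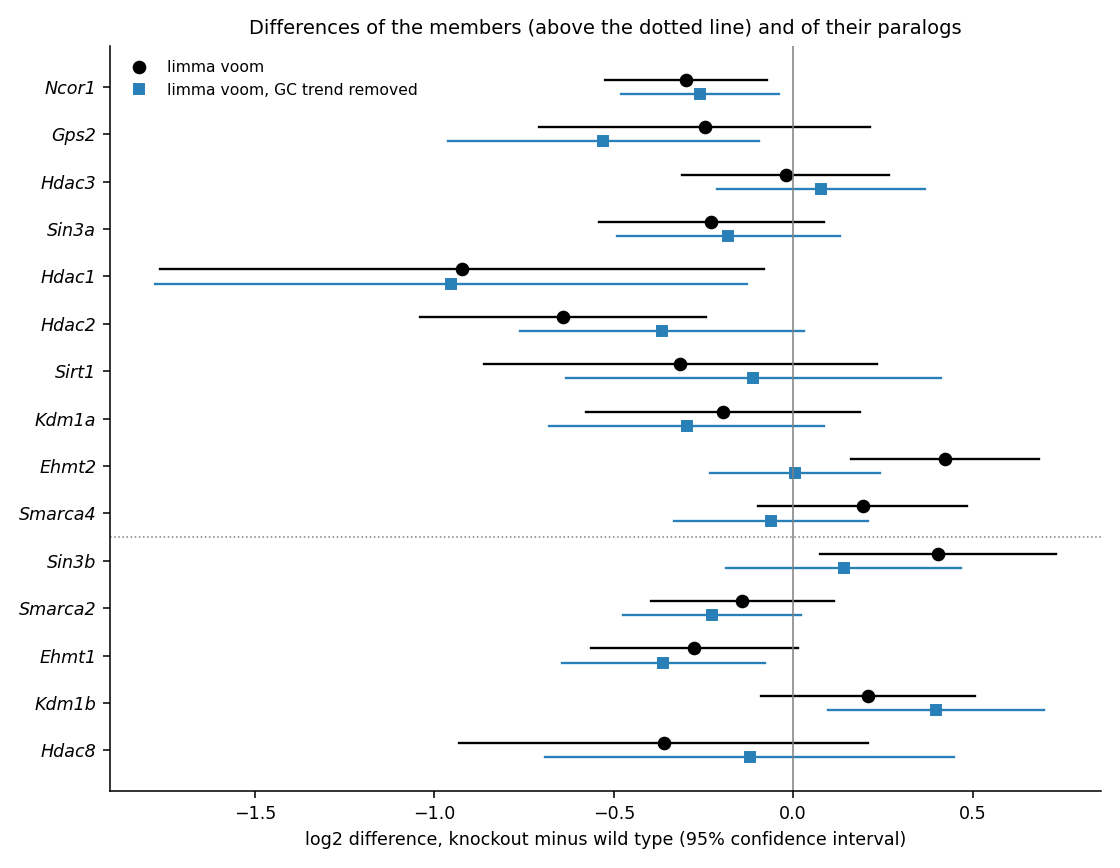
Log2 difference, knockout minus wild type (x axis), with 95% confidence intervals, for the 10 members above the dotted line and 5 paralogs below it, from limma voom (black circles) and from the same fit with the GC trend removed (blue squares). Ehmt2 moves from 0.42 to 0.00 and Hdac2 from −0.64 to −0.36, while Ncor1 is at −0.30 and −0.26.

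**Figure D4:**
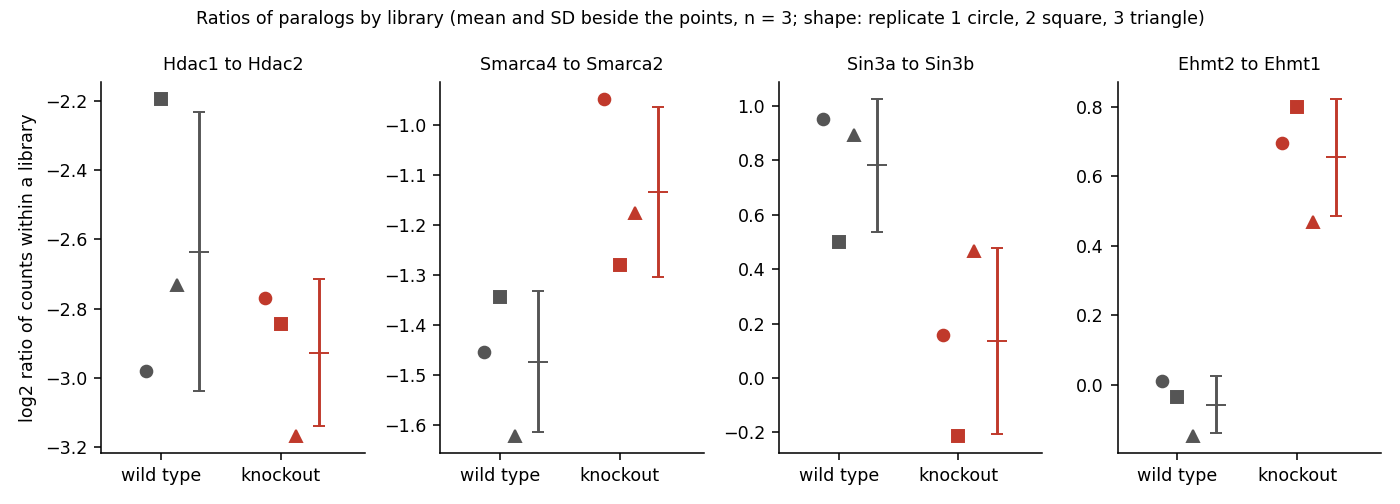
Log2 ratio of counts of a member to its paralog (y axis, a separate scale in each panel) in each wild-type (grey) and knockout (red) library, with the mean and SD beside the points (n = 3). The Sin3a to Sin3b ratio is lower and the Ehmt2 to Ehmt1 ratio higher in all knockout libraries, while the Hdac1 to Hdac2 ratios overlap.

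The remaining subunits of these complexes, and related enzymes, formed 11 lists with 102 gene names (103 identifiers, Hdac4 having 2), of which 99 were tested. Of these, 6 rose, 5 fell and 88 did not pass, which is 11.1% beside 14.5% of all genes, and the median log2 difference was 0.03. With the GC trend removed 2 rose and 0 fell. Without 1 library the number called ran from 3 (without wild-type library 3) to 9 (without wild-type library 1), with 7 without wild-type library 2 or knockout library 1 or 2 and 8 without knockout library 3.

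In the SIN3 list, Sap130, a complex subunit, rose from 9.07 ± 3.38 to 17.4 ± 2.01 CPM and Kdm5a, a demethylase of lysine 4 of histone H3, fell from 87.6 ± 4.41 to 57.8 ± 3.06 CPM (SD, n = 3 each), and 13 of 15 tested did not pass. In limma voom the adjusted p was 0.0242 for Sap130 and 0.00413 for Kdm5a. Rbbp4, a histone-binding subunit shared with NuRD, was at 145 ± 5.2 and 184 ± 20.0 CPM (limma voom, adjusted p = 0.0528), and it passed with the GC trend removed (0.50, adjusted p = 0.0143). In the NuRD list Mbd3 rose from 36.5 ± 7.13 to 55.8 ± 4.87 CPM, and Chd4, the remodelling ATPase, was at 163 ± 32.8 and 165 ± 14.2 CPM, with 8 of 9 not past the threshold (limma voom, adjusted p = 0.0153 for Mbd3). None of the 6 tested CoREST genes passed limma voom or limma trend, and 0 had an unadjusted p under 0.05, beside 30.6% of all genes tested. With the GC trend removed 0 of these 6 passed and 1 had an unadjusted p under 0.05, beside 21.3% of genes in that fit.

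In the SWI/SNF list Pbrm1 fell from 103 ± 9.17 to 77.3 ± 4.48 CPM and Brd7 from 55.6 ± 8.12 to 36.1 ± 7.53 CPM (SD, n = 3 each), both subunits of the PBAF form, and 16 of 18 did not pass. In the list for methylation of lysine 9 of histone H3, Cbx1 fell from 50.1 ± 7.88 to 33.7 ± 2.56 CPM and Cbx5 from 82.2 ± 6.10 to 56.4 ± 3.6 CPM, and 8 of 10 did not pass. Cbx1 and Cbx5 encode heterochromatin proteins that bind methylated lysine 9. In limma voom the adjusted p was 0.0218 for Cbx1, 0.00861 for Cbx5, 0.0274 for Pbrm1 and 0.0254 for Brd7.

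Of the other class I, II and IV deacetylases, Hdac10, known for deacetylating polyamines, rose from 6.75 ± 1.31 to 12.6 ± 1.28 CPM and 6 of 7 tested did not pass, among them Hdac11 at 50.1 ± 7.21 and 57.7 ± 7.54 CPM (SD, n = 3 each). Of 10 histone demethylases, Kdm4b rose from 11.4 ± 1.32 to 18.6 ± 3.64 CPM and Kdm5b from 53.8 ± 5.67 to 71.5 ± 6.15 CPM, and Kdm5c was at 110 ± 5.32 and 119 ± 7.27 CPM. The adjusted p in limma voom was 0.0253 for Hdac10, 0.0343 for Kdm4b and 0.0481 for Kdm5b. The 6 other sirtuins held no call, with the mitochondrial Sirt3 at 93.6 ± 16 and 110 ± 18.2 CPM, and neither did the 9 acetyltransferases and coactivators, with Ncoa2 at 96.8 ± 5.33 and 99.5 ± 7.11 CPM. Of 4 further repressors known to bind SHP or its partners, none passed: Ctbp1 was at 36.5 ± 3.78 and 48.8 ± 2.79 CPM (limma voom, adjusted p = 0.0545) and Eid1 at 4.62 ± 1.5 and 3.05 ± 1.15 CPM (adjusted p = 0.237). These 3 lists had 0 calls in limma trend too, and 1 of 6, 3 of 9 and 2 of 4 genes with an unadjusted p under 0.05 in limma voom, beside the same 30.6%.

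Kdm5a and Cbx5 kept their calls in each of the 6 limma voom fits without 1 library, and both were lost with the GC trend removed (adjusted p = 0.0821 and 0.171). Mbd3, at 0.63 with all libraries, was no longer called with the GC trend removed (0.15, adjusted p = 0.636) or when wild-type library 3 was dropped (0.45, adjusted p = 0.0909). Sap130 was lost without wild-type library 2 or 3 or knockout library 3 (adjusted p up to 0.0697), and Cbx1 without wild-type library 3 or knockout library 1 or 2 (up to 0.108). Pbrm1 was lost without wild-type library 2 or 3 or knockout library 2 or 3 (up to 0.0937), and Hdac10 without wild-type library 2 or 3 or knockout library 1 or 3 (up to 0.0945). Brd7 kept its call only without wild-type library 2 or knockout library 3, Kdm4b only without knockout library 1 or 2 and Kdm5b only without knockout library 3, with adjusted p up to 0.124, 0.142 and 0.133 in the other fits. Kdm5b remained a call with the GC trend removed (0.48, adjusted p = 0.0337), while Sap130, Cbx1, Pbrm1, Hdac10, Brd7 and Kdm4b did not (adjusted p from 0.0603 for Sap130 to 0.546 for Pbrm1). Pbrm1 went from −0.41 to −0.13 and Kdm4b from 0.73 to 0.37.

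**Figure D5:**
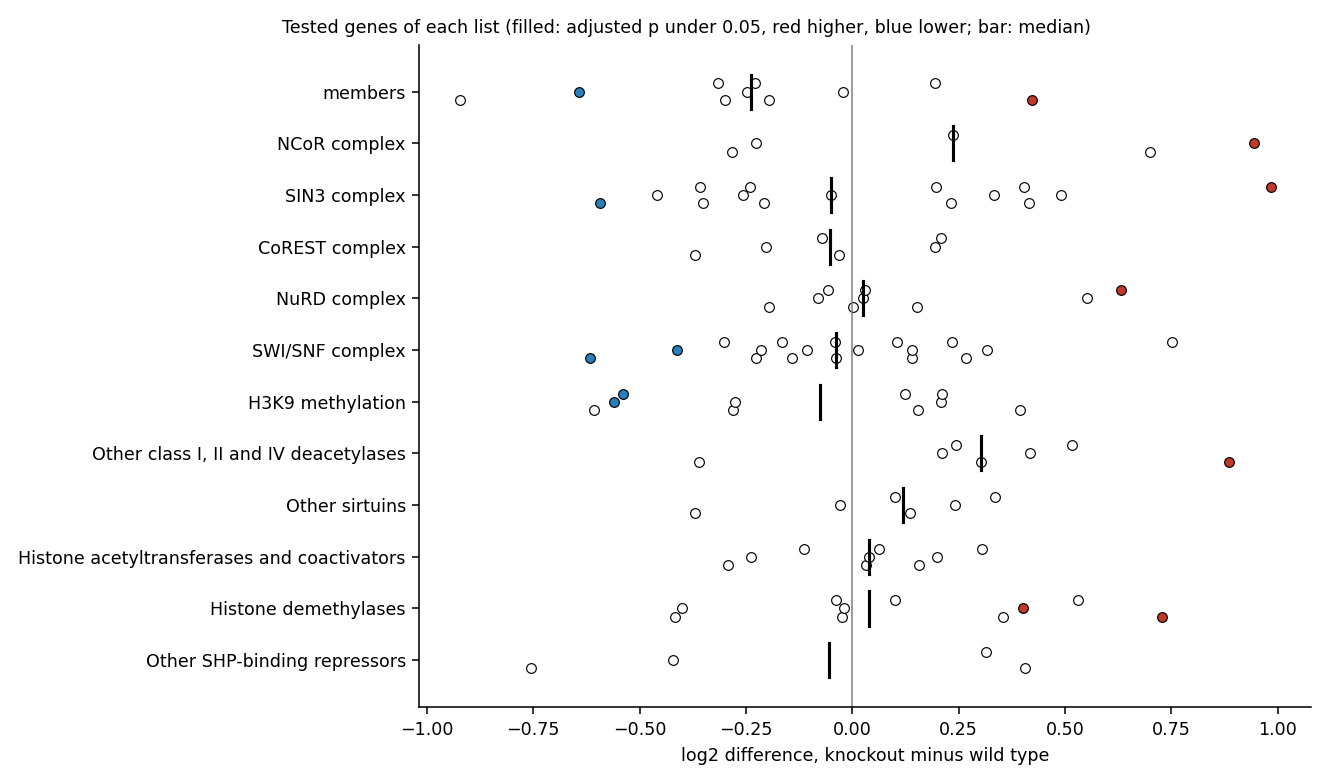
Log2 difference, knockout minus wild type (x axis), of every tested gene in the members' list and in each of the 11 partner lists, with a black bar at the list median and filled points for genes past an adjusted p of 0.05 (red higher, blue lower). Calls are scattered over the lists, 6 higher and 5 lower among the partner genes, and most points are open.

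Compared per kilobase of the table's gene length, wild-type levels ran from 16.2 ± 1.52 CPM per kb for Ncor1 and 13.2 ± 2.00 for Smarca4 down to 1.17 ± 0.195 for Hdac1 (SD, n = 3). Gps2, Sin3a, Ehmt2 and Hdac3 lay close together, at means of 10.4, 10.3, 10.1 and 9.61 CPM per kb. Hdac2, Kdm1a and Sirt1 followed at 5.59, 5.03 and 3.72 CPM per kb. Neighbours in this order overlapped across the wild-type libraries except Hdac3 above Hdac2 and Sirt1 above Hdac1. The place of Hdac1 is uncertain, because its near-identical copy Gm10093 took 87.0% of the counts of the pair. In wild type the mean was 4.02 CPM for Hdac1 alone and 25.8 CPM for the sum, which is not placed in this order. In knockout liver the order at the top differed: Smarca4 was at 13.2 to 17.2 CPM per kb, Ehmt2 at 13.1 to 14.2 and Ncor1 at 12.9 to 13.5, and the 3 ranges overlapped.

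Upstream sequences are shown for the member that rose and the member that fell, with Nr0b2 for contrast, because the starts of most members are rich in CpG, a feature that their choice did not use. They are the 250 bases before the annotated start from RefSeq on GRCm38.p6, a later build than the mm9 of the counts, 5′ to 3′ on the gene's strand, with CpG dinucleotides in capitals. Those of Ehmt2 (the upstream of its 2 starts, chr17:34898224-34898473), Hdac2 (chr10:36974294-36974543) and Nr0b2 (chr4:133553126-133553375) are all on the plus strand.
Ehmt2: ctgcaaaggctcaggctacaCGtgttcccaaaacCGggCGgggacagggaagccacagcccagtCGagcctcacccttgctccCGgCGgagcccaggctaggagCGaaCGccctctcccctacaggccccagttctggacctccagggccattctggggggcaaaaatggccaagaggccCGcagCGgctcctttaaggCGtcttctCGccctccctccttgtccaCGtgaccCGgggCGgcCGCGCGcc
Hdac2: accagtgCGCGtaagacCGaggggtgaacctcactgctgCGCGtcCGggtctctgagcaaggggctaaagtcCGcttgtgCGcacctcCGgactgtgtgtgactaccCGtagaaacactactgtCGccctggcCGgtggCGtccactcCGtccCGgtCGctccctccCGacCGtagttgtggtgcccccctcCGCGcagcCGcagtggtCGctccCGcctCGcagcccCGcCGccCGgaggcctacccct
Nr0b2: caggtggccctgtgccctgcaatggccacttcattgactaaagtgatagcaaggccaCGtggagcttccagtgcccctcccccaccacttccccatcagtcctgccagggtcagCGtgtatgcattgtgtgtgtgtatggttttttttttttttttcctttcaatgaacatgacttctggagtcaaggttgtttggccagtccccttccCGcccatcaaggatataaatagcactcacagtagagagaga

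CpG counts in these windows were 18 for Ehmt2, 27 for Hdac2 and 3 for Nr0b2. Over the 11 annotated starts of the 8 members with an entry the median was 21 (range 2 to 39), against a median of 6 and quartiles of 2 and 16 over 32851 promoters. The window with 2 belongs to the downstream start of Ncor1, and that of its upstream start had 34. The E-box CACGTG, searched on both strands, occurred in 3 of the 11 member promoters (both of Ehmt2 and that of Sirt1) and in 6.02% of all promoters. The GC box GGGCGG occurred in 8 of 11 and in 32.7% of all, the CCAAT box in 4 of 11 and in 33.8%, and TATAAA in 0 of 11 and in 12.4%, each on both strands. The median GC content was 67.6% for the member windows and 52.4% for all promoters, and the shares were not matched for it. The Nr0b2 window held 1 E-box, 1 GC box and 1 TATAAA. A match to such letters describes the sequence and is not evidence of a bound factor.

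In the authors' deposited table Hdac2 had an adjusted p of 0.0334 and Ehmt2 one of 0.0993. The authors' deposited table gives Ncor1 0.249 and Hdac1 0.258 by the same measure. Their log2 ratios were −0.62 for Hdac2, 0.43 for Ehmt2 and −0.30 for Ncor1 in the authors' deposited table.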

How the data were processed

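The 6 liver libraries, 3 per genotype, were sequenced from both ends. The submitters' processing notes name Novoalign 2.05.33 and mm9. How reads were counted, whether by strand, what was done with reads of several alignments, and which annotation was used is not stated in the sources used. Per gene and library, the authors deposited read counts, recorded here under a general unit because 4840 lines of the table end early, and with them RPKM values and a log2 ratio per pooled genotype, not tested here. The authors also deposited p and adjusted p scores, read as a multiple of −log10 of a p-value (recomputed adjusted scores had a median ratio of 1 to the deposited ones). Of counts from 1 to 19, 61.8% were even, so counts are not independent fragments.

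Genes were tested when at least 3 libraries reached 1.83 CPM, or 10 counts in a library of median size, with at least 15 counts in all. Scaling used trimmed means of M values (factors 0.966 to 1.03). After adding 0.5 to counts, log2 CPM went into voom, lmFit and eBayes of limma 3.58.1 (R 4.3.3), genotype being the only term, with Benjamini-Hochberg adjustment over 11794 genes. The code was tested on simulated data. Ratios of paralogs were tested by two-sided exact permutation over libraries. GC content is that of the longest GENCODE M21 transcript with the same Ensembl identifier (97.3% of genes tested); for the alternative fit, each library's loess trend (span 0.3) was subtracted. Copies were sought with blastn (at least 90% identity over 200 bases), and Python 3.11.15, pandas 2.3.3 and matplotlib 3.10.9 were used for the rest. Start coordinates were raised by 1, and genes with empty cells were left out.

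The members and lists were chosen with earlier results of these data known. Named genes were Nr0b2, the members, their paralogs, Rcor1, Tbl1xr1, Eid1, every list gene past the threshold, and the most abundant tested gene of each list that did not pass; results of this rule that are not given are not reported here. Marker genes, and Ttc19, Gm10093, Gm6743 and Gm5221, were named after their values were seen. Alternatives were median-of-ratios size factors, library totals only, no filter, limma trend, robust empirical Bayes, totals without mitochondrially encoded genes, a replicate block, and leaving out each library; the GC fit and the sum of Hdac1 with its copy were added after seeing the data. A negative binomial count test named in the plan was not run, because of the recorded unit.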

Additional observations from a re-analysis of the deposited data

How the results depend on the processing

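Of 532 values over alternatives for the 38 genes of the naming rule, 451 kept their direction and side of the threshold, 64 lost a call, 4 gained one and 13 changed sign. Over the whole table, 689 genes passed with the GC trend removed, and the number ran from 629 (without wild-type library 3) to 1560 with 1 library left out. For members the count was 0 without the low-count filter, 0 with the GC trend removed and 0 to 2 with 1 library left out; for partner genes it was 2 with the GC trend removed and 3 to 9 with 1 library left out.

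Signs turned with the GC trend removed for Hdac3 (0.077), Smarca4 (−0.061), Tbl1xr1 (0.051), Chd4 (−0.12), Hdac11 (−0.10) and Kdm5c (−0.041), and with 1 library left out for Hdac3 (−0.11 to 0.061), Rcor1 (−0.27 to 0.061) and Chd4 (−0.11 to 0.17). None of these was called. The Hdac1 to Hdac2 ratio difference was 0.30 with the copy summed and −0.47 to −0.07 with 1 library left out. That range was 0.25 to 0.41 for Smarca4 to Smarca2, −0.81 to −0.47 for Sin3a to Sin3b and 0.64 to 0.80 for Ehmt2 to Ehmt1.

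Same-numbered libraries did not deviate together (correlations of −0.01, −0.02 and −0.02), and nothing in the labels says that they share a litter or day. With a replicate block, 1779 genes, 2 members and 12 partner genes passed, and the calls of Nr0b2 and Kdm5b were lost. Depth limits the members unevenly: Hdac1 rests on 11 to 28 counts per library, Ncor1 on 688 to 1342.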
